A study of Mus musculus with 45 samples.

Results

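Cdkn1a, Mdm2, Ccng1, Trp53inp1, Gadd45a, Gadd45b, Gadd45g, Sesn1 and Sesn3, a set of p53-linked and growth arrest genes, were followed across 45 mouse liver RNA-seq libraries in 14 groups. They were chosen by symbol, with earlier results of these data known, and are 9 of the 23227 genes in the count tables. All 9 passed the filter on low counts and were tested among 14067 genes. The mice were wild-type C57BL/6J animals aged 24 weeks, fasted overnight. They were kept on chow, on a high-fat diet for 6 weeks (begun at 18 weeks of age) or on a high-fat diet for 16 weeks (begun at 8 weeks of age). On each diet, 3 libraries were basal and 3 came from mice given metformin, an oral antidiabetic drug, in the drinking water at 270 mg/kg per day. On chow and on the 16-week diet, further groups received an intraperitoneal injection of insulin at 1 U/kg and were sampled 15, 30, 60 or 120 minutes later. Each of these groups had 3 libraries, except the 30-minute group on the 16-week diet with 6. The tissue was whole liver, so fewer cells of a type and less RNA per cell cannot be told apart in any result below. Values are CPM, the reads of a gene relative to all counted reads of its library, scaled by the trimmed mean of M-values (TMM). The p-values measure the spread between the deposited samples of a group.

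The transcription factor p53 is held low by the ubiquitin ligase Mdm2, itself a p53 target, so that the pair forms a feedback loop. When p53 is stabilised by DNA damage or other stress, it induces genes that stop the cell cycle, repair DNA or lead to cell death. In the liver several of the same genes also respond to feeding, hormones and growth signals without DNA damage. Cdkn1a encodes the cyclin-dependent kinase inhibitor p21, Ccng1 encodes cyclin G1, and Trp53inp1 encodes a nuclear and autophagy-linked p53 cofactor. The 3 Gadd45 genes encode small stress sensors that bind p21, PCNA and the kinase Map3k4. The sestrins Sesn1 and Sesn3 restrain mTORC1 through the GATOR complexes, and Sesn3 is also a FoxO target.

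RefSeq promoter windows in build GRCm38.p6 were matched for 8 of the 9 genes. The 250 bases upstream of the annotated start are printed below for the gene with the best known p53 element and for the 3 genes that differed between diets in both basal comparisons, 5′ to 3′ on the gene's strand. The first window lies at chr17:29090729-29090978 (plus strand, the upstream of the Cdkn1a starts). The second lies at chr11:40755287-40755536 (minus strand), the third at chr10:80929841-80930090 (plus strand) and the fourth at chr6:67037408-67037657 (minus strand). Capitals mark motif matches on either strand.
Cdkn1a: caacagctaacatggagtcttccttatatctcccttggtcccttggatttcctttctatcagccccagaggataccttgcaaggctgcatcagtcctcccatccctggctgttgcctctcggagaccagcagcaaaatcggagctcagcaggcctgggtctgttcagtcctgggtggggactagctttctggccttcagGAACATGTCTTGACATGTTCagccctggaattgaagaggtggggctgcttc
Ccng1: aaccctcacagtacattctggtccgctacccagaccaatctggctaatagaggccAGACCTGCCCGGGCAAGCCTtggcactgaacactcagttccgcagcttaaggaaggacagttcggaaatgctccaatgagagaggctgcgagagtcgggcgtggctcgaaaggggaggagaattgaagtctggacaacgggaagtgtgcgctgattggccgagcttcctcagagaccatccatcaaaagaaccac
Gadd45b: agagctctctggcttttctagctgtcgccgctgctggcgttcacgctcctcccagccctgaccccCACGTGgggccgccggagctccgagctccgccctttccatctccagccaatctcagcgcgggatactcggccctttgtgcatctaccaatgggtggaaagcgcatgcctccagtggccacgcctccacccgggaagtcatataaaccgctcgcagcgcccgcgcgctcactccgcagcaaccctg
Gadd45a: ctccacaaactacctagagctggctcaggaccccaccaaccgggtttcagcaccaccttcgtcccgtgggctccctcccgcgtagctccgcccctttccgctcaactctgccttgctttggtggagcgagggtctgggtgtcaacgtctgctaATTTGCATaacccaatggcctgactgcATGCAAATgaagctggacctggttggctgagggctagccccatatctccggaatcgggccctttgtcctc
The capitals in the Cdkn1a and Ccng1 windows are matches to the p53 response element, searched as 2 adjacent 10-base units with at most 1 mismatch. Such a match was present in 19 of 32851 RefSeq windows of the same length (0.058%), and Cdkn1a and Ccng1 were the members that had one. The window of the other Cdkn1a start, at chr17:29093519-29093768 and not printed, held no match to any motif searched. The capitals in the Gadd45b window are an E-box (CACGTG), found in 6.02% of windows and also in the Gadd45g window. The capitals in the Gadd45a window are 2 copies of the octamer ATTTGCAT, which overlap no other motif searched. The octamer occurred in 1.60% of windows, among them those of Gadd45g and Sesn3. The FoxO-type word GTAAACA was found in 3.17% of windows and, among the members, in that of Mdm2. The cAMP response word TGACGTCA occurred in 1.55% of windows and in none of the members' windows. These matches describe the letters in the windows and show neither binding nor a cause.

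Scaled by exon length, the median level over the 45 libraries was highest for Trp53inp1 at 35.5 CPM per kilobase and for Gadd45g at 31.3 CPM per kilobase. Cdkn1a (15.8), Ccng1 (12.7) and Mdm2 (11.8 CPM per kilobase) followed, then Gadd45b at 4.91, Sesn1 at 3.78, Sesn3 at 3.04 and Gadd45a at 1.65 CPM per kilobase. Gadd45a was thus the least abundant, with 14 to 237 reads per library. The ratio of the highest to the lowest group mean, on the CPM scale, was 12 for Gadd45g, 6.27 for Gadd45b, 4.34 for Trp53inp1, 3.80 for Cdkn1a and 3.73 for Gadd45a. It was 2.57 for Sesn3, 2.17 for Ccng1, 1.56 for Mdm2 and 1.36 for Sesn1. Replicates of a group were tightest for Ccng1, with a median coefficient of variation of 7.28%, and widest for Gadd45g at 40.1% and Cdkn1a at 39.3%. In the order of levels, neighbours such as Cdkn1a, Ccng1 and Mdm2 overlapped in their library values.

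**Figure D1:**
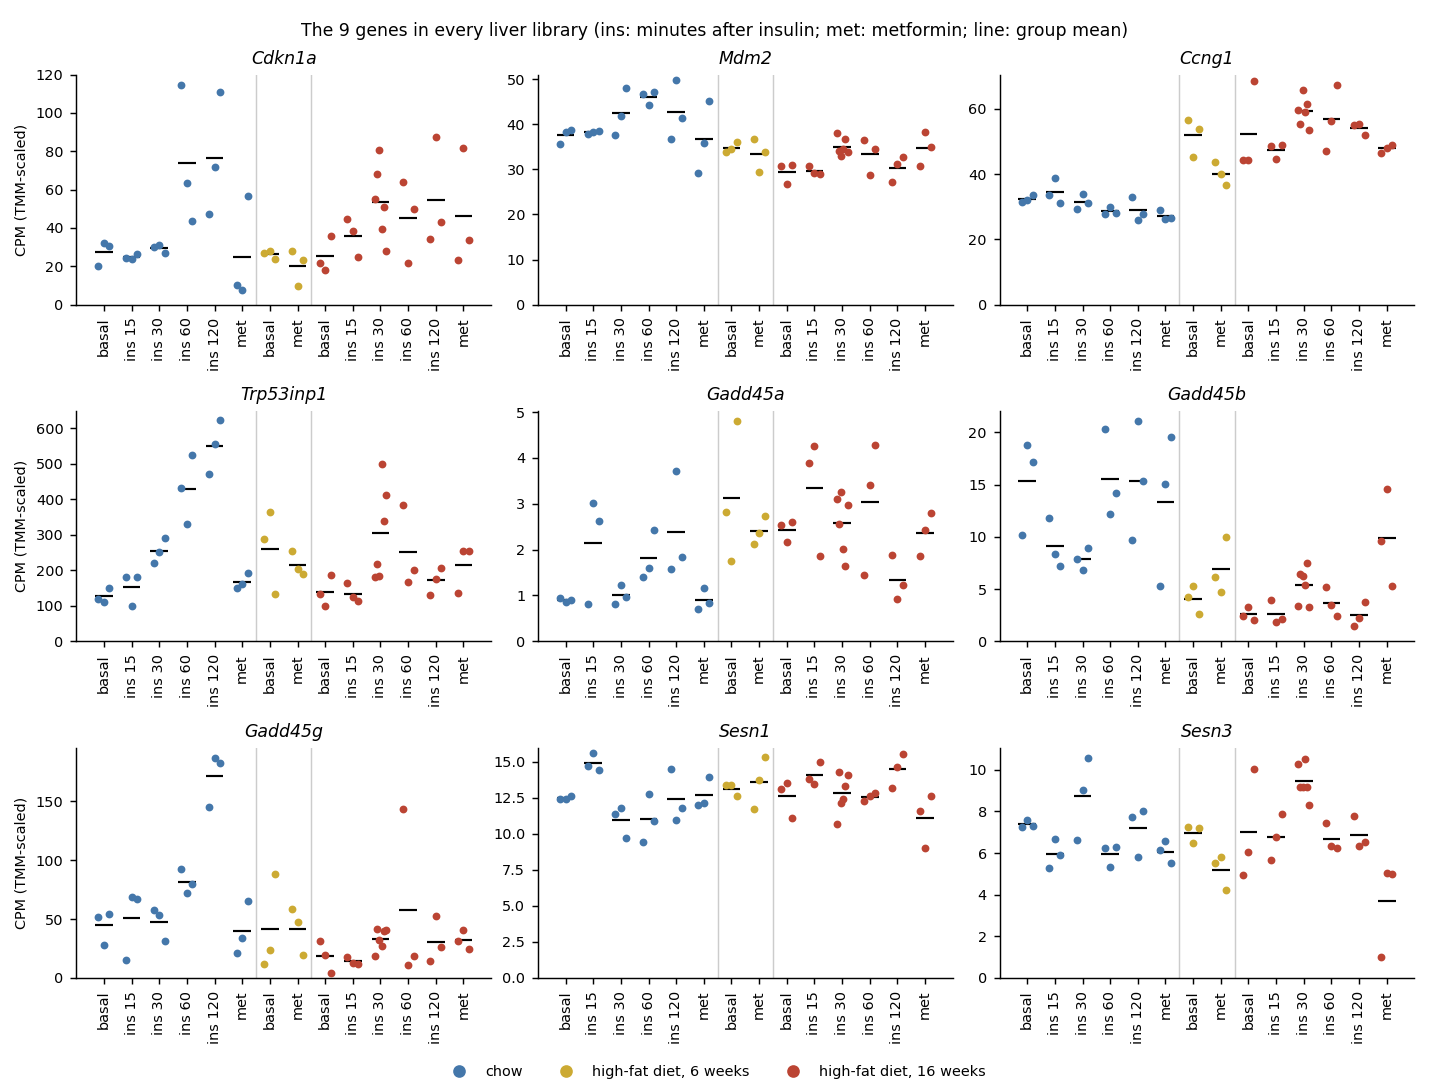
CPM (TMM-scaled, linear axis from 0) of the 9 genes in each of 45 libraries, by diet and treatment; points are libraries and black lines are group means. Ccng1 separates chow from the 16-week diet in every library, while Cdkn1a and Gadd45g spread widely within groups.

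Library depth was 18193181 to 50253493 counted reads. The summed level of 9 hepatocyte markers was 76698 to 164927 CPM, and these defining liver transcripts were abundant in all groups. Markers of other cell types varied. The sum of 11 Kupffer cell and macrophage markers was 219 to 411 CPM in basal chow, 257 to 495 CPM in basal 16-week libraries and up to 1228 CPM at 30 minutes of insulin on the 16-week diet. The sum of 10 pancreatic acinar markers was 263 to 1649 CPM in basal chow, 1.98 to 159 CPM in basal 16-week libraries and 1.62 to 6884 CPM at 30 minutes of insulin on the 16-week diet. Its widest range, 5.25 to 17974 CPM, was at 15 minutes of insulin on that diet. The sum of 6 erythroid markers was 63.8 to 92.7 CPM in basal chow, 108 to 125 CPM in basal 6-week and 93.2 to 123 CPM in basal 16-week libraries. Both diet groups thus lay above chow in this sum. The part of these cell types in the results below was not tested.

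The first question was which of the genes differ between diets in untreated mice. After 16 weeks of high-fat diet Ccng1 and Gadd45a were higher than on chow, and Gadd45b and Mdm2 were lower. After 6 weeks Ccng1 and Gadd45a were again higher and Gadd45b lower, and Trp53inp1 was higher. Cdkn1a, Sesn1 and Sesn3 did not pass the test in either comparison. All comparisons used edgeR's quasi-likelihood test with Benjamini-Hochberg adjustment over the 14067 genes. At 16 weeks 4 of the 9 genes were called, against 32.3% of all genes tested, and at 6 weeks 4 of 9 against 11% of all genes. The 2 comparisons share the basal chow libraries. The rank correlation of each library's expression with GC content, relative to the other libraries, was -0.08, -0.29 and -0.29 in basal chow. It was -0.18, -0.23 and -0.15 at 6 weeks and 0.28, 0.32 and 0.17 at 16 weeks. With trends in length and GC removed all member calls above were kept, and 2105 and 4453 of all genes were called at 6 and 16 weeks.

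Ccng1 (mm9 chr11:40562054-40568788, minus strand) read 31.6, 32.1 and 33.6 CPM in basal chow. It read 56.8, 45.4 and 54.0 CPM after 6 weeks of diet and 44.4, 44.3 and 68.4 CPM after 16 weeks. All 6 diet libraries lay above all 3 chow libraries. The means were 32.4 ± 1.04 CPM on chow, 52.0 ± 5.93 CPM at 6 weeks and 52.4 ± 13.9 CPM at 16 weeks (SD, n = 3 each). The log2 fold change over chow was 0.68 (SE 0.125, adjusted p = 0.00038) at 6 weeks and 0.69 (SE 0.125, adjusted p = 6.43e-05) at 16 weeks. Without replicate 3 of the basal 16-week group, whose value was 68.4 CPM, the 16-week change was 0.45 (adjusted p = 0.0033). Between 6 and 16 weeks the difference was 0.01 on the log2 scale (95% interval -0.23 to 0.25, adjusted p = 0.977).

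Gadd45b (mm9 chr10:80392836-80394949, plus strand), an early-response member of its family, moved the other way. Its basal values were 10.1, 18.8 and 17.1 CPM on chow, 4.22, 5.26 and 2.64 CPM after 6 weeks and 2.40, 3.26 and 2.03 CPM after 16 weeks. The highest diet value, 5.26 CPM, was below the lowest chow value. Mean levels were 15.4 ± 4.60, 4.04 ± 1.32 and 2.56 ± 0.634 CPM (SD, n = 3 each). The log2 fold change was -1.92 (SE 0.414, adjusted p = 0.0021) at 6 weeks and -2.57 (SE 0.441, adjusted p = 3.24e-05) at 16 weeks, a level 5.92-fold lower than on chow. The step from 6 to 16 weeks, -0.64 (95% interval -1.5 to 0.21), did not pass the test (adjusted p = 0.372). None of the 9 genes was called between 6 and 16 weeks, against 10.2% of all genes, and 2 had an unadjusted p below 0.05. DESeq2 called 1696 of all genes there.

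Gadd45a (mm9 chr6:66985090-66987401, minus strand), the family member most closely tied to p53, was low throughout. It stood at 0.946, 0.855 and 0.902 CPM in basal chow, 2.82, 1.75 and 4.82 CPM at 6 weeks and 2.54, 2.18 and 2.60 CPM at 16 weeks. The groups did not overlap with chow. The log2 fold change was 1.79 (SE 0.415, adjusted p = 0.00406) at 6 weeks and 1.42 (SE 0.426, adjusted p = 0.00989) at 16 weeks. Gadd45a shares exon bases with E230016M11Rik on the opposite strand, and 16.3% of its 40-base words occur in other genes, so its counts are uncertain. E230016M11Rik itself held 2 to 43 reads per library and differed by 0.51 between 16-week diet and chow (SE 0.478, adjusted p = 0.447). In the insulin-treated libraries compared below it was called higher on the diet. Gadd45g, the third of the family, read 51.7, 28.0 and 54.6 CPM on chow and 30.9, 19.8 and 4.54 CPM at 16 weeks. These ranges overlapped, and the difference of -1.28 (SE 0.699) did not pass the test (adjusted p = 0.162). At 6 weeks Gadd45g spanned 11.6, 23.5 and 88.5 CPM, a range that holds all 3 chow values.

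Mdm2 (mm9 chr10:117125961-117147772, minus strand) was 35.7, 38.3 and 38.9 CPM in basal chow, 33.8, 34.5 and 36.2 CPM at 6 weeks and 30.8, 26.8 and 30.9 CPM at 16 weeks. The 16-week libraries lay below all chow libraries, with a log2 fold change of -0.35 (SE 0.117, adjusted p = 0.0204). This call ended when any of chow replicate 2, chow replicate 3 or 16-week replicate 2 was left out, with adjusted p = 0.0597, 0.0662 and 0.112. At 6 weeks the change was -0.11 (adjusted p = 0.615). Trp53inp1 (mm9 chr4:11083588-11101524, plus strand) was 120, 110 and 150 CPM in basal chow and 288, 364 and 133 CPM at 6 weeks, so that the lowest 6-week library lay within the chow range. Its 6-week log2 fold change of 1.05 (SE 0.350) was called at adjusted p = 0.0471 and lost in 7 of 12 alternatives, reaching adjusted p = 0.271 without 6-week replicate 2. It was also lost without 6-week replicate 1 (adjusted p = 0.134) and without chow replicate 1, 2 or 3 (adjusted p = 0.119, 0.167 and 0.0781). In the same 6-week libraries, in the same order, the sum of 8 skeletal muscle markers was 1306, 188 and 4.1 CPM and that of 10 pancreatic acinar markers 118, 31.3 and 1.48 CPM, and their part in the Trp53inp1 values was not tested. In basal chow the muscle sum was 156, 1.28 and 0.796 CPM. At 16 weeks Trp53inp1 stood at 133, 100 and 186 CPM, a change of 0.14 (adjusted p = 0.791).

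Cdkn1a (mm9 chr17:29227931-29237667, plus strand) showed no such split. Basal values were 20.1, 32 and 30.8 CPM on chow, 26.9, 28.1 and 24.0 CPM at 6 weeks and 21.7, 18.2 and 36.0 CPM at 16 weeks. The log2 differences from chow were -0.06 (95% interval -1.09 to 0.96) and -0.12 (95% interval -1.16 to 0.91). Sesn1 differed by 0.07 (95% interval -0.16 to 0.31) and 0.01 (-0.23 to 0.25), and Sesn3 by -0.08 (-0.59 to 0.43) and -0.07 (-0.59 to 0.45), at 6 and 16 weeks. Sesn3 in basal 16-week libraries ran from 4.93 to 10.1 CPM, wider than the 7.23 to 7.58 CPM of basal chow. Trp53 itself changed by -0.18 (adjusted p = 0.326) at 6 weeks and -0.01 (adjusted p = 0.956) at 16 weeks. Its other regulator Mdm4 changed by -0.02 (adjusted p = 0.972) and -0.35 (adjusted p = 0.244). Mdm4 was 31.0, 31.4 and 30.6 CPM in basal chow and 25.7, 24.4 and 22.6 CPM at 16 weeks, without overlap. The model shared its spread over all groups, among them 16-week metformin with an Mdm4 library at 5.03 CPM. The part of that library in this adjusted p was not tested.

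**Figure D2:**
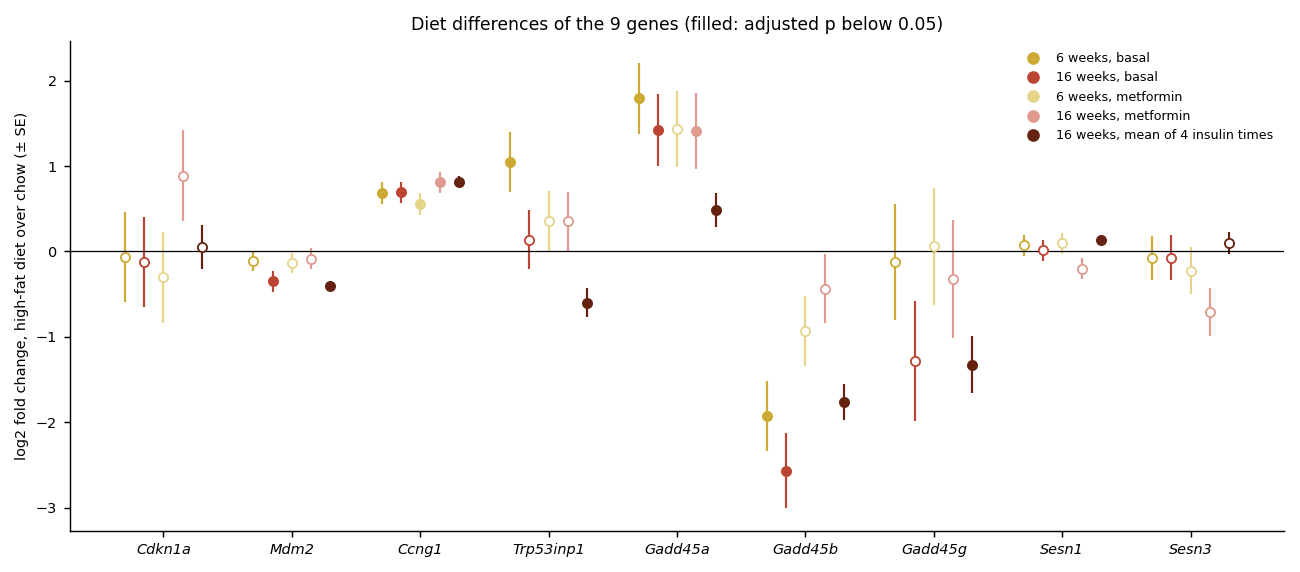
Log2 fold change of high-fat diet over chow with its standard error for each gene in 5 diet comparisons; filled points have an adjusted p below 0.05 and open points do not. Ccng1 is filled in all 5, between 0.56 and 0.82, and Gadd45b reaches its lowest value of -2.57 in the 16-week basal comparison.

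The same diet contrast was made in libraries that the basal comparison did not use. Averaged over the 4 insulin times, 15 libraries on the 16-week diet were compared with 12 on chow. Of the 9 genes 7 were called, against 59.4% of all genes. Ccng1 was 26 to 39.0 CPM in the 12 chow libraries and 44.6 to 67.3 CPM in the 15 diet libraries, with no overlap (log2 fold change 0.82, SE 0.0610, adjusted p = 4.26e-13). Taking all treatments together, the 18 chow libraries spanned 26 to 39.0 CPM, the 6 libraries of the 6-week diet 36.6 to 56.8 CPM and the 21 libraries of the 16-week diet 44.3 to 68.4 CPM.

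In the insulin-treated libraries Gadd45b was lower on the diet by -1.76 (SE 0.208, adjusted p = 8.57e-09) and Gadd45g by -1.33 (SE 0.334, adjusted p = 0.000945) on the log2 scale. Mdm2 changed by -0.40 (SE 0.0566, adjusted p = 2.97e-07) and Trp53inp1 by -0.60 (SE 0.168, adjusted p = 0.00263). These 4 genes and Ccng1 remained called in all 34 alternatives, although the library ranges of the 4 overlapped. Gadd45a at 0.49 (adjusted p = 0.0328) was lost in 11 of 34 alternatives, and Sesn1 at 0.14 (adjusted p = 0.0464) in 23 of 34. E230016M11Rik, which shares exon bases with Gadd45a, was also higher on the diet, by 0.79 (SE 0.264, adjusted p = 0.0103). Its part in the Gadd45a value was not tested. Cdkn1a differed by 0.05 (95% interval -0.44 to 0.55) and Sesn3 by 0.10 (95% interval -0.15 to 0.35). For some genes these averages joined times whose group means, not tested singly, differed in direction. Cdkn1a means on the diet and on chow were 36.0 and 24.8 CPM at 15 minutes but 54.8 and 76.7 CPM at 120 minutes. Those of Trp53inp1 were 306 and 254 CPM at 30 minutes but 172 and 550 CPM at 120 minutes. Those of Gadd45a were 3.34 and 2.15 CPM at 15 minutes but 1.34 and 2.38 CPM at 120 minutes. In the same comparison 11 of 11 macrophage, 7 of 8 endothelial and 7 of 8 proliferating-cell markers were higher on the diet, and their part in these differences was not tested.

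Under metformin, Ccng1 read 29.0, 26.3 and 26.7 CPM on chow, 43.8, 40.2 and 36.6 CPM at 6 weeks and 46.6, 48.2 and 48.9 CPM at 16 weeks. The 3 groups did not overlap, and both diet groups were above chow, by 0.56 (SE 0.126, adjusted p = 0.00698) and 0.81 (SE 0.126, adjusted p = 3.7e-05). At 6 weeks Ccng1 was the 1 of 9 genes called, against 4.43% of all genes, and without metformin 6-week replicate 1 its adjusted p was 0.0593. At 16 weeks 2 of 9 were called, against 20.4% of all genes, the other being Gadd45a at 1.4 (SE 0.444, adjusted p = 0.0223). The Gadd45a call was lost without chow metformin replicate 1 or 3 or without 16-week metformin replicate 3 (adjusted p = 0.0886, 0.0755 and 0.0609). At 6 weeks Gadd45a differed by 1.44 with no overlap (adjusted p = 0.054). Gadd45b under metformin did not pass at 6 weeks (-0.93, adjusted p = 0.21) or at 16 weeks (-0.43, adjusted p = 0.48). Mdm4 read 31.8, 31.9 and 35.1 CPM on chow and 5.03, 23.5 and 22.1 CPM at 16 weeks, with a log2 fold change of -0.96 (adjusted p = 0.00368). Without 16-week metformin replicate 1, the library at 5.03 CPM, Mdm4 was lower by -0.52 (adjusted p = 0.00206), and with only these groups in the model the adjusted p was 0.304. Trp53 changed by -0.23 (adjusted p = 0.153), and by -0.35 with trends in length and GC removed (adjusted p = 0.0156).

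Cdkn1a under metformin on chow read 10.3, 7.83 and 56.5 CPM, with replicate 3 far above the others. The difference of the 16-week metformin group from it was 0.89 (SE 0.531, adjusted p = 0.24). Without that chow library the difference was 2.35 (adjusted p = 0.0046).

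Other genes of the pathway were counted in lists of known function. In the basal 16-week comparison, of 40 other p53 targets tested 10 were higher and 3 lower, 32.5% called against 32.3% of all genes (median log2 fold change 0.17, against 0.02 over all genes). Of 18 cyclins, kinases and other partners of p21 and Gadd45 proteins 7 were higher and 1 lower (44.4%), with a median of 0.38. Of 20 CDK inhibitors and growth arrest genes 4 were higher and 4 lower (40%). Of 23 p53 regulators 4 were higher and 3 lower (30.4%), and of 21 genes of sestrin, GATOR and mTORC1 signalling 4 were higher and 8 lower (57.1%). Of 17 FoxO factors and fasting targets 3 were higher and 5 lower (47.1%). At 6 weeks the p53 targets gave 4 higher and 1 lower (12.5%) and the partners 3 higher and none lower (16.7%), against 11% of all genes. The share called among the p53 targets was thus near that of all genes in both comparisons.

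Ccnd1, the cyclin D1 gene whose product drives entry into the cell cycle, rose from 11.4 ± 0.508 CPM on chow to 43.5 ± 6.66 CPM at 6 weeks and 66.9 ± 7.79 CPM at 16 weeks (SD, n = 3 each). Its log2 fold changes were 1.93 (adjusted p = 0.000837) and 2.55 (adjusted p = 5.51e-06). Pml, which encodes the scaffold of nuclear bodies that p53 visits, rose by 0.66 (adjusted p = 0.000999) and 0.96 (adjusted p = 1.49e-06). At 16 weeks Ces2e, a liver carboxylesterase, rose by 1.51 (adjusted p = 3.1e-06), and Ercc5, a DNA repair nuclease, fell by 0.51 (adjusted p = 0.000101). The GATOR2 subunits Mios and Seh1l fell at 16 weeks by 0.62 (adjusted p = 2.27e-05) and 0.52 (adjusted p = 1.99e-06). Seh1l overlaps exons of an opposite-strand gene, and its change was -0.33 with trends in length and GC removed. At 6 weeks Trib1 rose by 0.95 (adjusted p = 0.00234), while the GATOR1 subunit Nprl3 fell by 0.48 (adjusted p = 0.000832), Ei24 by 0.42 (adjusted p = 0.00361) and Mios by 0.40 (adjusted p = 0.00906). Nprl3 shares exon bases with Mpg on the other strand.

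Next, the time after insulin was compared with the basal libraries of the same diet. On chow Trp53inp1 was the member that rose, at 60 and 120 minutes. Cdkn1a, Gadd45g and Gadd45a had higher means late after insulin without passing the test. The 4 chow comparisons share the basal chow libraries, and the 4 comparisons on the 16-week diet share the basal 16-week libraries.

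Trp53inp1 on chow read 181, 99.4 and 181 CPM at 15 minutes and 222, 250 and 291 CPM at 30 minutes, against 120, 110 and 150 CPM in basal livers. It read 432, 332 and 525 CPM at 60 minutes and 473, 555 and 623 CPM at 120 minutes. From 30 minutes on every library exceeded every basal one, and the 60- and 120-minute ranges overlapped each other. Its log2 fold change was 0.28 at 15 minutes (adjusted p = 0.972) and 1.01 at 30 minutes (adjusted p = 0.393). It was 1.76 at 60 minutes (SE 0.356, adjusted p = 0.00539) and 2.12 at 120 minutes (SE 0.361, adjusted p = 0.000343), a 4.34-fold higher level. The 60-minute call ended without basal chow replicate 2 (adjusted p = 0.0635). The 120-minute call was kept in all 13 alternatives. Of the 9 genes, 0 were called at 15 minutes (1.13% of all genes) and 0 at 30 minutes (0.0711%), where 2 members had an unadjusted p below 0.05 each time and DESeq2 called 250 and 62 of all genes. At 60 minutes 1 of 9 was called (1.39%) and at 120 minutes 1 of 9 (5.08%).

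Cdkn1a on chow was 115, 63.7 and 43.8 CPM at 60 minutes and 47.5, 71.9 and 111 CPM at 120 minutes, all above the highest basal value of 32 CPM. The log2 differences were 1.43 (SE 0.532, adjusted p = 0.214) and 1.48 (SE 0.533, adjusted p = 0.105). Gadd45g, a growth hormone- and cytokine-responsive member of its family, was 145, 186 and 183 CPM at 120 minutes, above the basal 28.0 to 54.6 CPM, with a difference of 1.94 (SE 0.700, adjusted p = 0.105). Gadd45a was 1.57, 3.72 and 1.85 CPM at 120 minutes, also without overlap, with a difference of 1.38 (SE 0.428, adjusted p = 0.0531). When the model held those groups alone, Cdkn1a (adjusted p = 0.0245) and Gadd45g (adjusted p = 0.00518) passed at 120 minutes. Gadd45a passed with DESeq2 (adjusted p = 0.0252). Gadd45b at 30 minutes, 7.89, 6.84 and 8.93 CPM, lay below basal chow, but the difference of -0.95 did not pass (adjusted p = 0.557). Mdm2 at 60 minutes, 46.7, 44.3 and 47.1 CPM, lay above basal chow by 0.29 (adjusted p = 0.263).

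On the 16-week diet the picture for Trp53inp1 was less regular. Basal values were 133, 100 and 186 CPM and the 6 libraries at 30 minutes read 181, 219, 183, 500, 339 and 413 CPM. Replicates 1 to 3 averaged 194 CPM and replicates 4 to 6 averaged 417 CPM, with no overlap. The log2 fold change over all 6 was 1.13 (SE 0.316, adjusted p = 0.0403), the 1 of 9 genes called (3.55% of all genes). Without replicates 4 to 6 it was 0.48 (adjusted p = 0.31), and the call also ended without replicate 4 or 6 alone or without basal replicate 1 or 2 (adjusted p = 0.0832, 0.0562, 0.28 and 0.159). The call was kept in 8 of 18 alternatives. It was lost with trends in length and GC removed, where 490 of all genes were called, and with the replicate block. The rank correlation of each library's relative expression with GC content was 0.19 to 0.22 in replicates 1 to 3 and -0.22 to -0.13 in replicates 4 to 6. In basal 16-week libraries it was 0.17 to 0.32. The part of this trend in the Trp53inp1 values was not tested. Cdkn1a divided the other way, averaging 67.9 CPM in replicates 1 to 3 and 39.6 CPM in replicates 4 to 6. The remaining 7 genes overlapped between these subsets. The share of all genes without overlap was not counted, so these splits cannot be called particular to the set.

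At the other times on the 16-week diet none of the 9 genes was called, against 0% of all genes at 15 minutes, 0.00711% at 60 minutes and 0% at 120 minutes. In these comparisons 0, 2 and 2 members had an unadjusted p below 0.05, and DESeq2 called 3, 22 and 8 of all genes. Trp53inp1 was 385, 168 and 201 CPM at 60 minutes and 132, 177 and 206 CPM at 120 minutes, where it differed from basal by 0.30 (adjusted p = 0.823). Cdkn1a ran from 21.8 to 63.8 CPM at 60 minutes and from 34.2 to 87.3 CPM at 120 minutes. Gadd45g at 60 minutes was 144, 11 and 18.8 CPM, its mean resting on replicate 1. Gadd45b at 30 minutes was 3.4, 6.42, 6.22, 5.37, 7.49 and 3.27 CPM. All 6 values exceeded the basal 2.03 to 3.26 CPM, and the difference of 1.05 did not pass (adjusted p = 0.107).

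**Figure D3:**
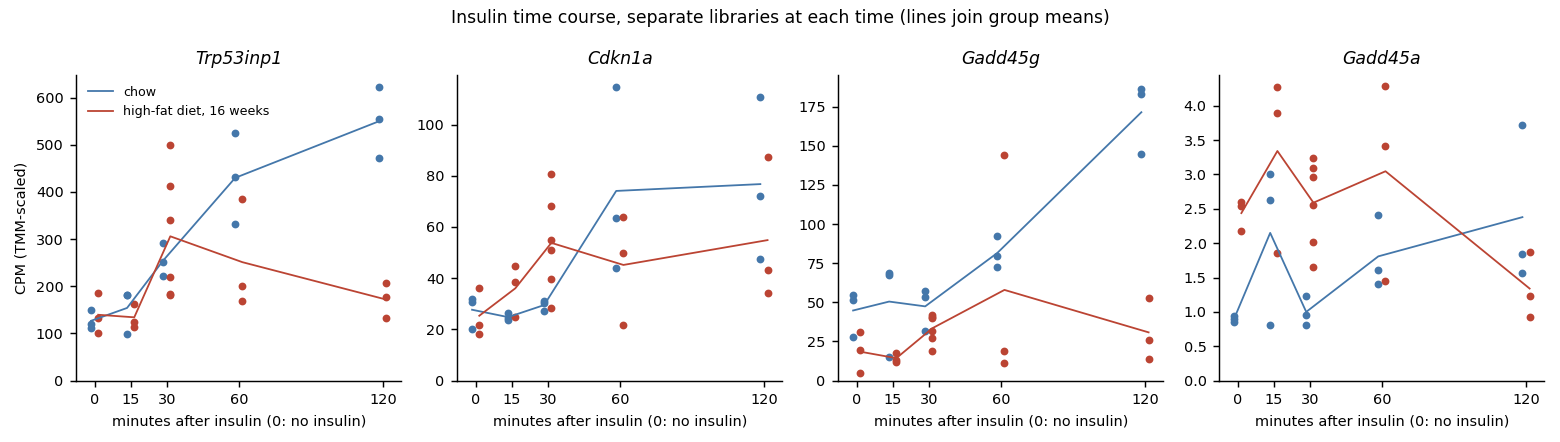
CPM (linear axis from 0) of 4 genes against minutes after insulin on chow (blue) and on the 16-week high-fat diet (red); points are libraries and lines join group means. Trp53inp1 on chow climbs from a basal mean of 127 CPM to 550 CPM at 120 minutes, while on the diet its 120-minute mean is 172 CPM.

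Whether the insulin response differed between diets was tested as an interaction. None of the 9 genes was called at 15, 30, 60 or 120 minutes, against 0.00711%, 0%, 0% and 0.839% of all genes. In these tests, in the same order, 0, 1, 0 and 2 members had an unadjusted p below 0.05, and DESeq2 called 12, 121, 86 and 328 of all genes. The Trp53inp1 response at 120 minutes was smaller on the diet by -1.82 (SE 0.494, 95% interval -2.79 to -0.85, adjusted p = 0.0635). This difference passed with DESeq2 (adjusted p = 0.0213), with trends in length and GC removed (0.0142), when the model held those groups alone (0.0184), with the replicate block (0.0339) and without chow 120-minute replicate 1 (0.0471). The Gadd45a response differed by -2.22 (SE 0.595, adjusted p = 0.0601) and passed with DESeq2 (adjusted p = 0.0168), with those groups alone (0.0427) and without chow 120-minute replicate 1 (0.0297). Gadd45b at 30 minutes differed by 2.01 (SE 0.566, adjusted p = 0.134), and passed with DESeq2 (adjusted p = 0.034).

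Other pathway genes changed after insulin on chow. Tob1, an antiproliferative gene, rose at 15 minutes by 1.04 (adjusted p = 0.00489), at 30 minutes by 0.98 (adjusted p = 0.0287) and at 60 minutes by 1.22 (adjusted p = 0.000622). Btg2, a p53-induced antiproliferative gene, went from 7.89 ± 1.5 CPM in basal chow to 33.6 ± 22.6 CPM at 15 minutes and 49.9 ± 16.2 CPM at 120 minutes (SD, n = 3 each). Its log2 fold changes were 2.10 (adjusted p = 0.00826) and 2.67 (adjusted p = 0.000289). Plk3, a stress-responsive kinase, rose by 1.92 at 15 minutes (adjusted p = 0.0185), 3.02 at 60 minutes (adjusted p = 0.000342) and 3.32 at 120 minutes (adjusted p = 4.43e-05). Plk3 shares exon bases with Tctex1d4 on the other strand, so its counts are uncertain. Leaving out 1 library ended the 15-minute calls of Tob1 (chow basal replicate 2), Btg2 (insulin replicate 3 and basal replicates 1 and 2) and Plk3 (insulin replicates 2 and 3 and basal replicates 1 and 2), at adjusted p of up to 0.185. The 30-minute Tob1 call ended without any 1 of 5 libraries, insulin replicates 2 and 3 and basal replicates 1 to 3 (adjusted p of up to 0.234).

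Txnip, a glucose-responsive arrestin-fold gene that overlaps an opposite-strand transcript, fell by 2.30 at 30 minutes (adjusted p = 2.81e-06) and by 1.97 at 60 minutes (adjusted p = 8.34e-05) on the log2 scale. Trp53 fell at 120 minutes from 14.3 ± 1.28 to 10.5 ± 0.657 CPM (SD, n = 3 each), by 0.45 on the log2 scale (adjusted p = 0.013), a call that ended without 120-minute replicate 1 (adjusted p = 0.06) or basal replicate 1 (adjusted p = 0.0979). Mdm4 changed by -0.10 at that time (adjusted p = 0.883). At 120 minutes 3 of 40 other p53 targets and 4 of 17 FoxO-list genes were higher, and 0 and 1 were lower, which is 7.5% and 29.4% called against 5.08% of all genes. The growth arrest gene Gas1 fell by 1.27 (adjusted p = 0.00215). In the interaction at 120 minutes 2 of the 40 p53 targets were called, both with a smaller response on the diet. These were Plk3 at -2.75 (adjusted p = 0.0209) and Gdf15, a secreted stress cytokine, at -3.31 (adjusted p = 0.0309). The Plk3 call was lost in 6 of 19 alternatives and the Gdf15 call in 9 of 19, with adjusted p of up to 0.0978 and 0.108. Omitting any of these libraries ended both calls: chow 120-minute replicate 2 or 3, 16-week 120-minute replicate 1 and chow basal replicate 2. Basal 16-week replicate 1 ended that of Plk3 alone, and 16-week 120-minute replicates 2 and 3, chow basal replicate 1 and basal 16-week replicate 3 that of Gdf15 alone. On the 16-week diet at 30 minutes Ddit4, an inhibitor of mTORC1, rose by 1.91 (adjusted p = 0.013), a call lost without basal replicate 1 (adjusted p = 0.188) and with the deposited signal in limma (0.0629).

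The last question was the effect of metformin within each diet. On chow 0 of 9 genes were called (1.94% of all genes) and on the 6-week diet 0 of 9 (3.17%), with 0 and 1 members at an unadjusted p below 0.05. DESeq2 called 480 and 678 of all genes there. On the 16-week diet 2 of 9 were called (28.4%), Gadd45b higher and Sesn3 lower. These comparisons share their basal libraries with the diet and insulin comparisons.

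Gadd45b read 9.60, 14.6 and 5.31 CPM with metformin on the 16-week diet, all above the basal 2.40, 3.26 and 2.03 CPM. This was a log2 fold change of 1.93 (SE 0.441, adjusted p = 0.00147), and in a fit of only these 2 groups the adjusted p was 0.127. On chow the metformin values of 5.28, 15.1 and 19.5 CPM overlapped the basal ones, with a change of -0.20 (adjusted p = 0.85). At 6 weeks metformin values were 6.16, 4.73 and 9.94 CPM, a change of 0.79 (adjusted p = 0.277). The difference between the 16-week and chow responses was 2.13 (SE 0.593, adjusted p = 0.0348), the 1 of 9 genes called in that interaction (4.96% of all genes), and it was lost in 11 of 19 alternatives. The libraries whose omission ended it were basal chow replicates 2 and 3, chow metformin replicates 1 and 2, basal 16-week replicates 2 and 3, and 16-week metformin replicates 1 and 2, with adjusted p from 0.0624 to 0.11. For the 6-week diet the interaction was 0.99 (adjusted p = 0.866), and 0 of 9 genes were called (0.0427% of all genes), with 0 members at an unadjusted p below 0.05 and 15 of all genes called by DESeq2.

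Sesn3 (mm9 chr9:14080745-14130578, plus strand) read 0.983, 5.05 and 5.01 CPM with metformin on the 16-week diet against 4.93, 6.06 and 10.1 CPM in basal livers. The ranges overlapped, replicate 1 being far below the other metformin libraries. Sesn3 changed by -0.92 on the log2 scale (SE 0.278, adjusted p = 0.0128). Without metformin replicate 1 it was -0.47 (adjusted p = 0.132) and without basal replicate 3 it was -0.57 (adjusted p = 0.169). In metformin replicate 1 the rank correlation of relative expression with transcript length was -0.61, against -0.34 and -0.27 in the other metformin libraries of that diet, and its part in the Sesn3 value was not tested. In this comparison 4 of 8 endothelial and 4 of 8 stellate markers were lower and 4 of 9 hepatocyte markers higher, which was likewise not tested as a cause.

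Ccng1 on the 6-week diet was 56.8, 45.4 and 54.0 CPM in basal livers and 43.8, 40.2 and 36.6 CPM with metformin, with no overlap. The change of -0.37 (SE 0.124, 95% interval -0.62 to -0.13) did not pass the test (adjusted p = 0.0813). On chow Ccng1 also lay lower with metformin in every library, by -0.25 (adjusted p = 0.331), and on the 16-week diet by -0.13 with overlap (adjusted p = 0.474). Cdkn1a with metformin on the 16-week diet was 23.3, 81.5 and 33.6 CPM and overlapped its basal values. Sesn1 (mm9 chr10:41530380-41628242, plus strand) stayed between 9.01 and 15.6 CPM in all 45 libraries.

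**Figure D4:**
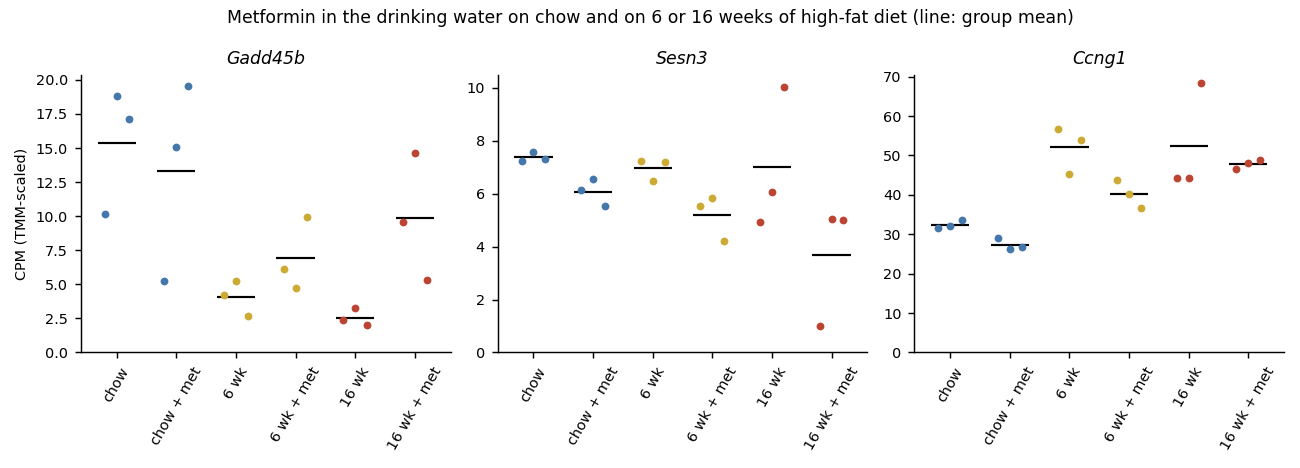
CPM (linear axis from 0) of Gadd45b, Sesn3 and Ccng1 without and with metformin on each diet; points are libraries and lines are group means of 3. Gadd45b with metformin on the 16-week diet averages 9.84 CPM against 2.56 CPM in basal livers, and Sesn3 has a metformin library at 0.983 CPM.

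Of the other pathway genes under metformin on the 16-week diet, 5 of 40 p53 targets were higher and 5 lower (25%), 6 of 23 p53 regulators were lower and 1 higher (30.4%), and 5 of 18 partners were lower and 1 higher (33.3%). Among sestrin, GATOR and mTORC1 genes 5 of 21 were higher and 3 lower (38.1%). These shares stand beside 28.4% of all genes. The rank correlation of relative expression with transcript length was -0.61, -0.27 and -0.34 in the metformin libraries and -0.22, 0.07 and 0.15 in the basal ones. With trends in length and GC removed the p53 targets gave 3 higher and 1 lower, the regulators 4 higher and 2 lower, the partners 1 higher and 4 lower and the sestrin list 6 higher and 0 lower. That fit called 2259 of all genes, against 3992 in the reported fit. With only these groups in the model none of these genes was called, but only 14 of all genes were, so this says little about the lists. Rraga and Rheb, GTPases that activate mTORC1, rose by 0.48 (adjusted p = 0.000344) and 0.52 (adjusted p = 0.000428). Tsc2, which restrains Rheb and overlaps Pkd1 on the opposite strand, fell by 0.56 (adjusted p = 0.000207). Pml fell by 0.67 (adjusted p = 0.00038) and Cdk6 by 1.02 (adjusted p = 0.000474). The exons of Rraga and Rheb span 1611 and 1521 bases and those of Tsc2 and Pml 6147 and 5377 bases. With the trends removed Rraga changed by 0.27, Rheb by 0.21, Pml by -0.34 and Tsc2 by -0.20, and the Tsc2 call was lost (adjusted p = 0.0646), while Cdk6 changed by -1.14. With only these groups in the model all 5 calls were lost, with adjusted p from 0.15 to 0.165. Trp53 changed by -0.16 (adjusted p = 0.312). Mdm4 changed by -0.52 (adjusted p = 0.0916), and by -0.09 (adjusted p = 0.671) without metformin replicate 1. On the 6-week diet Tob1 fell by 0.88 (adjusted p = 0.0092) and Sirt1, a p53 deacetylase, by 0.59 (adjusted p = 0.0118). Both calls ended without 6-week metformin replicate 2 (adjusted p = 0.0536 and 0.0957), and that of Sirt1 also without basal replicate 1 or 2 (0.0581 and 0.0578). With trends in length and GC removed, that comparison called 236 of all genes, against 446 in the reported fit. Its basal and metformin libraries did not overlap in the length correlation or in depth, and the part of either was not tested. On chow Prkaa1, an AMP-activated kinase subunit, fell by 0.41 (adjusted p = 0.0436), a call lost in 8 of 12 alternatives, among them leaving out any 1 of the 6 libraries.

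Likeness of pattern was described by Pearson's r of mean log2 CPM over the 14 groups, which share libraries and diets, among about 9334 genes with a mean of at least 5 CPM. The closest genes were Klhl13 (0.975) and Kdm1b (0.961) for Ccng1, Sbf2 (0.966) and Lrch3 (0.956) for Sesn3, and Fam96a and Ttc1 (both 0.962) for Gadd45b. Mdm2 was most like Srsf11 (0.935), Gadd45g most like Paics (0.917) and Trp53inp1 most like Slc38a2 (0.916). Gadd45a was most like Bhlhe40 (0.868), Cdkn1a most like Atp1b3 (0.830) and Sesn1 most like Nudt12 (0.828). Among the members themselves Mdm2 ran with Gadd45g (r = 0.86) and Gadd45b (r = 0.85), and Gadd45b ran against Ccng1 (r = -0.83) over the 14 group means. Within groups, deviations from the group mean were most alike for Cdkn1a and Mdm2 (r = 0.63 over 45 libraries).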

How the data were processed

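Poly(A) RNA of whole mouse liver was sequenced in 45 libraries with a kit that does not mark strand. Reads were mapped with TopHat 1.4.0 to mm9 and counted per gene with HTSeq, per the submitters' processing notes, and the authors deposited raw counts per gene. They also deposited a normalized signal for the insulin series, scaled within each diet, used here for one alternative.

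The members and gene lists were chosen with earlier results of these data known. Groups follow the labels. Counts were scaled by TMM and genes filtered with filterByExpr (minimum count 10), leaving 14067 of 23227. One edgeR 4.0.16 quasi-likelihood model in R 4.3.3 held all 45 libraries with 1 coefficient per group. Adjusted p-values are Benjamini-Hochberg over all genes, called below 0.05, and 23 comparisons were made. Standard errors are the absolute log2 fold change over the square root of F. The scripts were tested on simulated data.

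Named genes were the 9 members, Trp53, Mdm4 and, of the pathway lists, up to 3 called genes per direction with the smallest adjusted p at a mean of at least 1 CPM, from which a selection is printed. Gdf15 and Plk3 were named the same way.

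Alternatives were RLE scaling, no filter, DESeq2 1.42.0, the deposited signal with limma 3.58.1 on log2(value + 1), length and GC trends removed, only the groups compared, a replicate block, and leaving out libraries. For pathway genes and lists these were added after the data were seen. Same-numbered libraries deviated together, with every correlation over 0.1, in the metformin comparisons on the 6-week diet (0.41, 0.16 and 0.30) and on the 16-week diet (0.24, 0.15 and 0.12). The pairing comes from the data. Elsewhere some single correlations were larger, such as 0.52, -0.10 and 0.41 for 6-week diet against basal chow. They were -0.25, 0.47 and 0.11 for insulin at 30 minutes on the 16-week diet. Promoter windows are from RefSeq, GRCm38.p6, a build other than the mm9 of the files, and no coordinates were converted. An mm9 genome was not used here. Depth was 18193181 to 50253493 counts per library.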

Additional observations from a re-analysis of the deposited data

Results flagged for a closer look

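The Gadd45b response to metformin differed between the 16-week high-fat diet and chow by a test of the difference itself. The log2 difference was 2.13 (SE 0.593, adjusted p = 0.0348, edgeR's quasi-likelihood test with Benjamini-Hochberg adjustment). All 3 metformin libraries on the 16-week diet exceeded the 3 basal ones, whereas the chow groups overlapped. The call was lost in 11 of 19 alternatives: with trends in length and GC removed, with only the groups compared, without replicate 1 of the basal and metformin 16-week groups together, and without any of 8 of the 12 libraries (basal chow replicates 2 and 3, chow metformin 1 and 2, basal 16-week 2 and 3, 16-week metformin 1 and 2). Among pathway genes the insulin response at 120 minutes differed between these diets for Plk3 by -2.75 and Gdf15 by -3.31. The metformin response differed for Rraga by 0.64, Seh1l by 0.43, Rchy1 by 0.51, Pml by -0.91, Trp53bp1 by -0.54 and Cdk6 by -1.18. In that test 4.96% of all genes were called. All 6 of these calls were lost with only the groups compared, but that fit called 0 of all genes, so the loss says little about single genes. With trends in length and GC removed 307 of all genes were called, against 698. The exons of the 6 genes span 1611, 4121, 1967, 5377, 7709 and 2470 bases in that order, and the part of length was not tested. In the group of 6 libraries, at 30 minutes of insulin on the 16-week diet, no gene of the set had a library standing apart by Dixon's criterion.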

How the results depend on the processing

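None of the 24 called values of the 9 genes changed direction under any alternative that gave a value. Of the 183 values that were not called, 77 changed sign under at least 1 alternative, and none was called with the other sign. Without basal 16-week replicate 3 the Ccng1 difference between 16 and 6 weeks went from 0.01 to -0.23, and without basal 16-week replicate 1 that of Sesn3 between 16 weeks and chow from -0.07 to 0.13. The cause of the changes below was not tested. Counts are of the 9 genes called. With trends in length and GC removed, the count was 1 for 16-week diet against chow under metformin (2 in the reported fit), 0 for insulin at 30 minutes on the 16-week diet (1), 1 for the diet difference at 120 minutes (0) and 0 for the metformin difference between 16-week diet and chow (1). With only the groups compared, the counts for those 4 were 1, 0, 2 and 0. For those 4, the calls over all genes were 2451, 490, 111 and 307 with trends removed. They were 285, 28, 217 and 0 with only the groups compared. The latter fit also gave 2 for 6-week diet against chow under metformin (1) and 1 for insulin at 30 minutes on chow (0). It gave 3 at 120 minutes on chow (1) and 0 for metformin on the 16-week diet (2). Over all genes it called 476, 61, 865 and 14 in these, against 623, 10, 714 and 3992 in the reported fit. DESeq2 gave 2 for 6-week diet against chow under metformin and 2 for insulin at 120 minutes on chow. It gave 1 for the diet difference at 30 minutes (0) and 2 at 120 minutes (0). Over all genes DESeq2 called 859, 890, 121 and 328 in these, against 623, 714, 0 and 118 in the reported fit. The deposited signal with limma gave 3 at 120 minutes on chow, with 961 of all genes, and 0 of both at 30 minutes on the 16-week diet. Leaving out replicates 4 to 6 at 30 minutes gave 0 there. Leaving out replicate 1 of the basal and metformin groups of the 16-week diet gave 0 there and 0 for the metformin difference.

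The replicate block fitted replicate number across all groups, not pairs within a comparison. With it, the count was 1 for 16 against 6 weeks (0) and 2 for 6-week diet against chow under metformin (1). It was 0 for insulin at 30 minutes on the 16-week diet and 1 for the diet difference at 120 minutes (0). Over all genes the block called 1649, 716, 1734 and 156 in these, against 1436, 623, 500 and 118 in the reported fit. At 30 minutes the block leaves replicates 4 to 6 without partners. Of the paired metformin comparisons, the block changed no member's call.

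Leaving out 1 library at a time gave 3 to 4 for basal 16-week diet against chow, 3 to 4 for 6-week diet, 1 to 3 and 0 to 1 under metformin at 16 and 6 weeks, 0 to 1 for 16 against 6 weeks and 5 to 7 for the insulin mean. It gave 0 to 1 at 15 and 60 minutes and 1 to 2 at 120 minutes on chow, 0 to 2 at 30 minutes on the 16-week diet and 0 to 2 for the diet difference at 120 minutes. For metformin on the 16-week diet it gave 1 to 2, and for its difference from chow 0 to 2.

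Over all genes, insulin at 30 minutes on the 16-week diet called 500 genes, 1734 with the block, 1744 without replicates 4 to 6, 972 with DESeq2, 322 without the filter, 28 with only the groups compared and 0 with limma. Metformin on the 16-week diet called 3992, but 2259 with trends removed, 2109 without the replicate 1 pair and 14 with only the groups compared. Its difference from chow called 698, and 307, 307 and 0 in those settings and 1128 with DESeq2. Under metformin the 16-week diet against chow called 2871, but 1675 without that pair and 285 with only the groups compared. The diet difference at 120 minutes called 118, and 217 with only the groups compared and 328 with DESeq2. Leaving out 1 library at a time gave 0 to 814 for 30 minutes on the 16-week diet, 1574 to 4555 for metformin on that diet, 89 to 1381 for its difference from chow, 1605 to 3732 for that diet against chow under metformin and 8 to 256 for the diet difference at 120 minutes. It gave 539 to 1109 for 16 against 6 weeks (1436), 771 to 1308 for 6-week diet against chow (1549), 240 to 573 under metformin (623), 20 to 127, 1 to 14, 53 to 245 and 272 to 825 for insulin at 15 to 120 minutes on chow (159, 10, 195 and 714), and 66 to 345 and 138 to 412 for metformin on chow (273) and on the 6-week diet (446). Depth limits Gadd45a most, at 14 to 237 reads per library.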
